A study of Mus musculus with 2 samples.

Results

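Macrophages reach the embryonic brain from the yolk sac before the brain makes its own glia, and 37 genes of this lineage, its growth factors and its signalling partners were followed in the mouse midbrain. The genes were taken by symbol from the gene tables, 37 of 43346 gene rows, and all 37 had a row. Midbrain RNA came from B6NCrl embryos at embryonic day 10.5, and 10 ng per library was sequenced as total RNA. The labels give 1 group of 2 biological replicates, a pool of 69 embryos for replicate 1 and a pool of 51 embryos for replicate 2, both of mixed sex and healthy. Both pools carry the same donor label, no embryo was treated or mutant, and the labels name midbrain tissue with no sorting of cells. Expected counts over all gene rows summed to 45531621 in replicate 1 and 50477634 in replicate 2. With 1 group no condition could be tested, so each gene is given by its level in both libraries and by the ratio of replicate 1 over replicate 2.

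Yolk sac macrophages depend on the transcription factor PU.1, the product of Spi1, and on the receptor Csf1r, which answers to the growth factors Csf1 and Il34. Those that stay in the neural tissue become microglia and clear dying cells, while others settle at the border of the brain and around vessels. Microglia later switch on a set of surface genes that includes P2ry12 and Tmem119, and border macrophages keep Mrc1, Lyve1 and Cd163. Several of the 37 genes are made by other cells too: Stab1 and Lyve1 by endothelium, Pf4 by megakaryocytes, Sall1 by neural progenitors, and Csf1, Il34, Cx3cl1, Mertk, Axl, Gas6 and Apoe by diverse cells of the embryo. Runx1 is also used by blood progenitors. The other 25 genes are used mainly by myeloid blood cells, although Tmem119 is also known from bone-forming mesenchyme.

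PU.1 binds purine-rich DNA with a GGAA core. GAGGAA was found near the starts of 17 members, and the windows before the starts of 4 of them are shown as examples. They were read from RefSeq on GRCm38, whose table had windows for 28 of the 37 genes. Letters run 5′ to 3′ on the strand of the gene. Capitals mark GAGGAA, GAGGAAGT or its reverse complement ACTTCCTC. The windows lie at chr4:136886201-136886320 on the minus strand (C1qb), chr4:136893092-136893119 on the minus strand (C1qc), chr3:95526612-95526785 on the plus strand (Ctss) and chr5:90772315-90772434 on the plus strand (Pf4). The C1qc line is limited to the match and its flanks, since bases around it are annotated as exon. In Ctss a second match, to the longer sequence, spans the start and is not shown.
C1qb: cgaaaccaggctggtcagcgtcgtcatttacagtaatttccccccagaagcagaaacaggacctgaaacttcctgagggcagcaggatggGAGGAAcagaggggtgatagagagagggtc
C1qc: gacggcagacACTTCCTCattttggcac
Ctss: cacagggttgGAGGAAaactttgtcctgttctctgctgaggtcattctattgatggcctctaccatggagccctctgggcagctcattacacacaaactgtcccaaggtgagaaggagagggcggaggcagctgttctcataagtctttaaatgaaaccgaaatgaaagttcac
Pf4: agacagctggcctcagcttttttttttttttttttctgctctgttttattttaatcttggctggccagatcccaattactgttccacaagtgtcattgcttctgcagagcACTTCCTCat

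Over whole windows, from 250 bases before to 50 after each start and on both strands, GAGGAA was found in 19 of 37 member windows, which belong to 17 of the 28 genes. It was found in 28.3% of all 32851 windows. The longer GAGGAAGT, which contains it, was found in 3 of 37 member windows (C1qc, Ctss and Pf4) and in 3.20% of all windows. Some genes have several windows that overlap, such as Fcgr3, so windows are not independent. A match describes the letters only.

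At 1 TPM (a count corrected for transcript length and scaled to a fixed total per library) or more in both libraries, 29 of the 37 genes were detected, against 58.1% of 21474 protein-coding genes. Of the genes used mainly by myeloid cells, 20 of 25 were detected, and of those also made by other cells 9 of 12. In both libraries 19 of the 37 members reached 5 TPM, against 46.2% of protein-coding genes, and 11 of the 37 reached 10 TPM, against 38.2%. Their median level in replicate 1 was 6.28 TPM, against 3.965 TPM over all protein-coding genes. In replicate 2 it was 5 TPM, against 3.4 TPM. The 25 mainly myeloid genes summed to 192.6 TPM in replicate 1 and 142.6 TPM in replicate 2, a mean of 167.6 ± 35.4 (SD, n = 2). In a bulk sample, fewer cells of a type and less RNA per cell cannot be told apart.

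**Figure D1:**
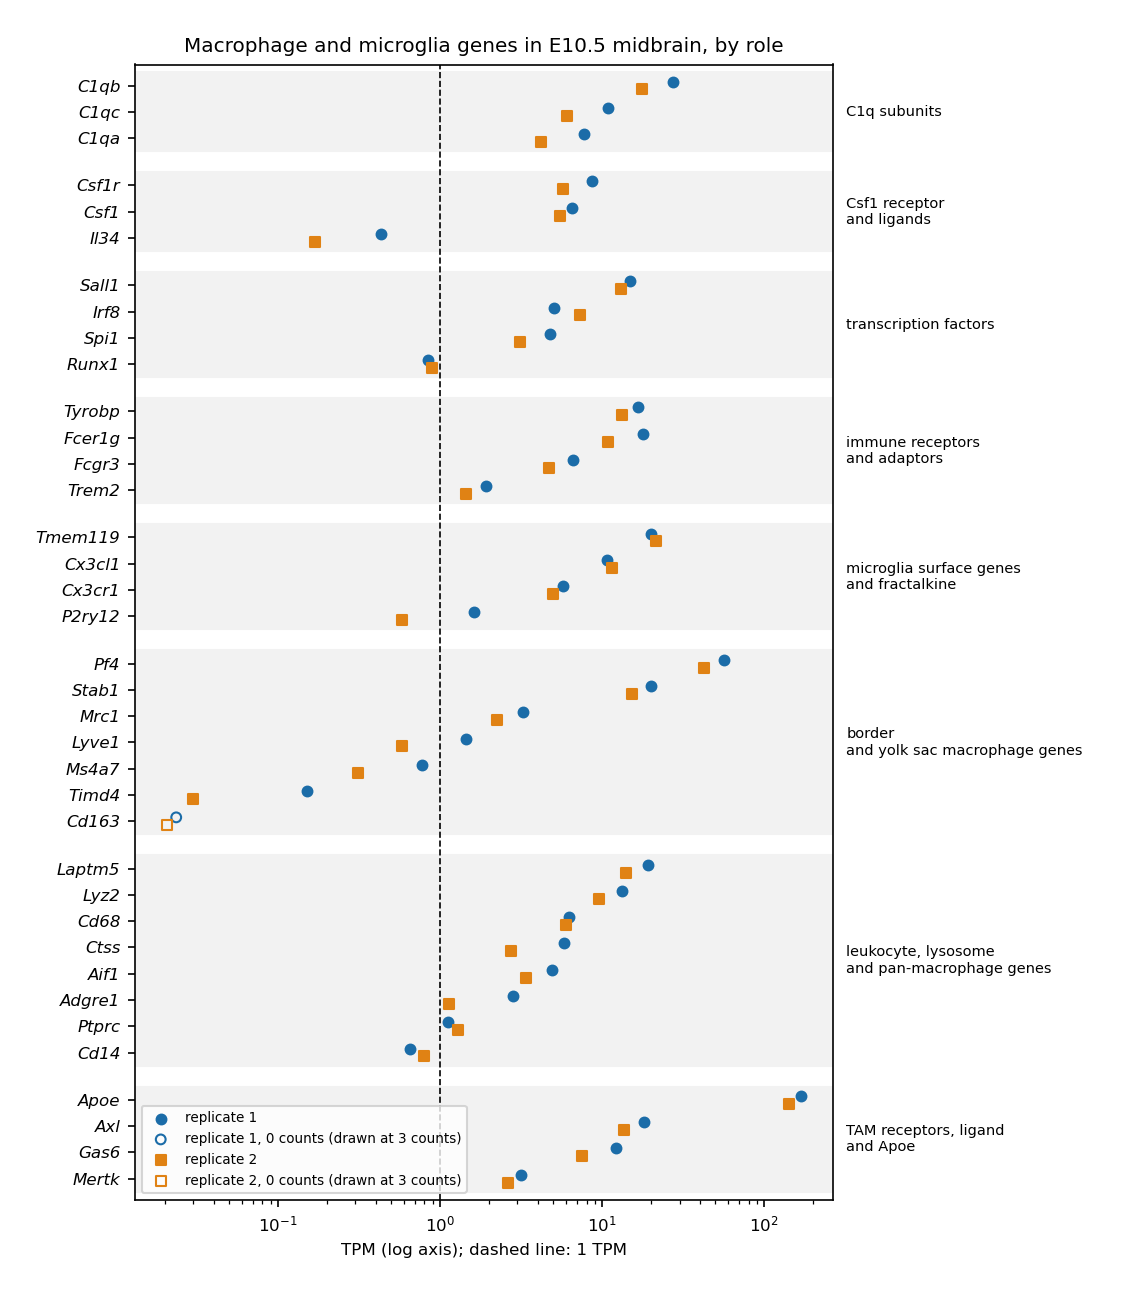
TPM on a log axis for each of the 37 genes, grouped by role and ordered by mean within a role, with circles for replicate 1 and squares for replicate 2. The dashed line is 1 TPM, and Cd163, with 0 counts in both libraries, is drawn as open symbols at the level of 3 counts. Apoe stands highest at 168 and 141 TPM, and Il34, Runx1, Ms4a7, Timd4, Cd163 and Cd14 lie left of the line in both libraries.

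The C1q genes encode the chains of the protein that opens the classical complement pathway, and macrophages are their main source. C1qb was at 27.4 TPM in replicate 1 and 17.5 TPM in replicate 2, the third highest of the members by mean level. C1qc was at 10.9 and 6.07 TPM and C1qa at 7.71 and 4.21 TPM. The order C1qb, C1qc, C1qa was the same in both libraries. C1qb exceeded C1qa 3.86 ± 0.43 times and C1qc exceeded C1qa 1.43 ± 0.019 times (SD, n = 2), although the 3 chains are built into 1 complex. The deposited credible intervals of the libraries did not overlap for any of the 3 genes, nor for 35.9% of the 14768 genes that averaged 1 TPM or more. The scaled count of each C1q gene was higher in replicate 1: the ratio of replicate 1 over replicate 2 was 1.48 for C1qb, 1.70 for C1qc and 1.73 for C1qa. The proteases that C1q activates were listed near 0: C1ra was at 0.06 and 0.11 TPM and C1s1 at 0.15 and 0.32 TPM.

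The 3 genes lie side by side on the minus strand of chromosome 4 within 18675 bases (GRCm38): C1qb from 136880129 to 136886187, C1qc from 136889804 to 136893065 and C1qa from 136895917 to 136898803. The gaps between them are 3616 and 2851 bases. Their neighbours on either side are the receptor genes Ephb2, at 17.8 and 13.2 TPM, and Epha8, at 5.86 and 3.32 TPM. Both neighbours were also higher in replicate 1.

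**Figure D2:**
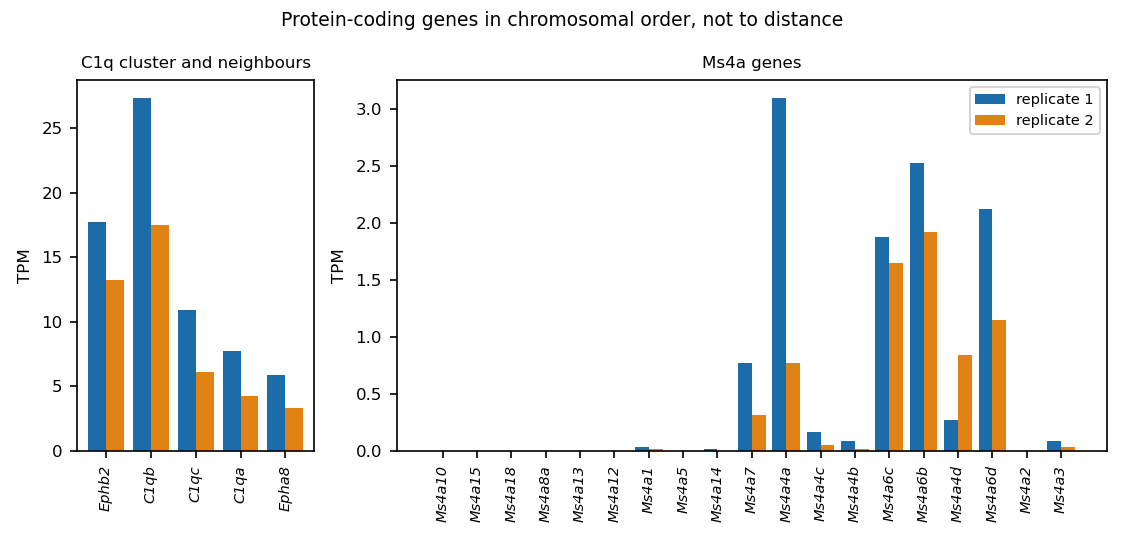
TPM (bars from 0, replicate 1 in blue, replicate 2 in orange) of protein-coding genes in chromosomal order for the C1q genes with 1 neighbour on either side, and for the Ms4a genes of chromosome 19. All 5 bars of the left panel are higher in replicate 1, and 8 of the 19 Ms4a genes have 0 counts in both libraries.

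Csf1r, the receptor that macrophages need to survive, was at 8.61 TPM in replicate 1 and 5.75 TPM in replicate 2, from 1164 and 888 expected counts. The overlapping gene Hmgxb3 on the other strand, at 13.9 and 12.95 TPM, shares 873 exon bases with it, so reads in that stretch cannot be assigned where strand was not used. Of its ligands, Csf1 was at 6.48 and 5.50 TPM. Il34, the ligand that neurons and skin cells make later, was at 0.43 and 0.17 TPM, from 14 and 9 counts. Csf1 therefore exceeded Il34 in both libraries, 15.1 times in replicate 1 and 32.4 times in replicate 2, and the size of that ratio rests on the few Il34 counts. Csf1r stood 1.19 ± 0.20 times above Csf1. Among the transcripts of Csf1, 68.1% in replicate 1 and 58.1% in replicate 2 were Csf1-201. The other main one, Csf1-202, made up 25.7% and 34.7%, and both are protein coding.

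Among the transcription factors, Irf8 had the lower scaled count in replicate 1 and Sall1 the higher, while the counting intervals of Spi1 and Runx1 spanned 1. Irf8, a partner of PU.1 in myeloid cells, was at 5.07 TPM in replicate 1 and 7.27 TPM in replicate 2. Its scaled count ratio was 0.825, with a counting interval from 0.715 to 0.949. Part of the difference in TPM came from short transcripts: the full-length Irf8-201 was at 4.19 and 4.36 TPM, while the intron-retaining Irf8-202 was at 0.07 and 1.38 TPM. Spi1 was at 4.77 and 3.09 TPM, but from 157 and 180 counts. It was the only member of mean 1 TPM or more whose TPM and scaled count ratios lay on opposite sides of 1, at 1.54 and 0.944. The counting interval of its count ratio ran from 0.757 to 1.175, so no difference in counts was shown. In replicate 1 the short transcript Spi1-204 held 46.6% of the gene, and in replicate 2 it was listed at 0, so the full-length Spi1-201 was at 2.19 and 2.69 TPM. Spi1-204 lies outside the rule for isoforms and was looked at after its values were seen. Runx1, which blood progenitors need to form, was below detection at 0.84 and 0.89 TPM, from 122 and 121 counts, with a ratio of 1.09 (interval 0.841 to 1.41). Sall1, which microglia require later and neural progenitors use now, was at 14.8 and 13.02 TPM.

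The receptor genes that signal through tyrosine motifs were all detected, as were 58.1% of all protein-coding genes. Tyrobp, the adaptor that carries Trem2 signals, was at 16.6 TPM in replicate 1 and 13.2 TPM in replicate 2. Fcer1g, the adaptor of Fc receptors, was at 17.8 and 10.8 TPM, so the 2 adaptors stood at similar levels, with Tyrobp at 1.08 ± 0.21 of Fcer1g. Fcgr3, an Fc receptor that pairs with Fcer1g, was at 6.56 and 4.72 TPM, with 83.6% and 80.1% in Fcgr3-201. Trem2, a lipid receptor of microglia, was much lower at 1.93 and 1.45 TPM, from 63 and 60 counts. Tyrobp exceeded Trem2 by 8.62 and 9.14 times. Reads of Fcgr3 and of related Fc receptor genes may be hard to separate. Its relative Fcgr2b had 0.33 TPM in replicate 1 and 0.08 TPM in replicate 2, and Fcgr4 had 0.21 and 0.05 TPM.

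Of the surface genes of mature microglia, Tmem119 was at the highest level. It was at 19.9 TPM in replicate 1 and 21.3 TPM in replicate 2, the fourth highest of the members by mean level, above Csf1r by 2.31 and 3.71 times. P2ry12, an ADP receptor by which microglia sense injury, was at 1.61 and 0.58 TPM, from 96 and 39 counts, and passed 1 TPM in replicate 1 alone. Cx3cr1, the fractalkine receptor, was at 5.69 and 5 TPM, mostly as Cx3cr1-202 (76.3% and 88.9%), with Cx3cr1-201 at 23.7% and 11.1%. Its ligand gene Cx3cl1, which neurons make, was at 10.7 and 11.5 TPM. Tmem119 and Cx3cl1 were lower in replicate 1, with scaled count ratios of 0.880 (interval 0.815 to 0.949) and 0.872 (0.801 to 0.948). The ratio of P2ry12 was 2.64 (1.82 to 3.97), the opposite direction to Tmem119. P2ry12 passed the filter of 1 TPM on the mean through replicate 1, where it was high, so its direction was partly set by the filter. Which cells made the RNA of each gene was not tested.

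Genes of yolk sac and border macrophages ranged from among the highest members to no counts. Pf4, a chemokine of platelets and of early macrophages, was at 56.4 TPM in replicate 1 and 42.2 TPM in replicate 2, second only to Apoe. Mrc1, the mannose receptor, was at 3.25 and 2.24 TPM, which is 0.377 and 0.390 of Csf1r. Lyve1, a hyaluronan receptor, was at 1.45 and 0.58 TPM. Ms4a7, a membrane gene of border macrophages, was at 0.77 and 0.31 TPM, from 25 and 13 counts. Timd4, a receptor for dying cells, was at 0.15 and 0.03 TPM, from 9 and 2 counts. Cd163, the haemoglobin scavenger receptor, had no counts in either library. A limit of 3 counts corresponds to 0.0235 TPM in replicate 1 and 0.0205 TPM in replicate 2, and the deposited upper credible bounds were 0.0365 and 0.0321 TPM.

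Stab1, a scavenger receptor, was listed at 20.0 TPM in replicate 1 and 15.3 TPM in replicate 2, but protein-coding transcripts made up only 4.77 and 3.33 TPM of this, 23.9% and 21.8%. The full-length Stab1-201 was at 4.25 and 2.52 TPM and held most of the reads. The remainder was assigned to a 242-base processed transcript, Stab1-202, at 6.04 and 4.31 TPM, and to intron-retaining transcripts such as Stab1-204 at 3.95 and 3.74 TPM. Nt5dc2, at 428.6 and 452.3 TPM, overlaps Stab1 on the other strand, with 112 shared exon bases. Reads of the pair in that shared stretch cannot be told apart without strand.

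**Figure D3:**
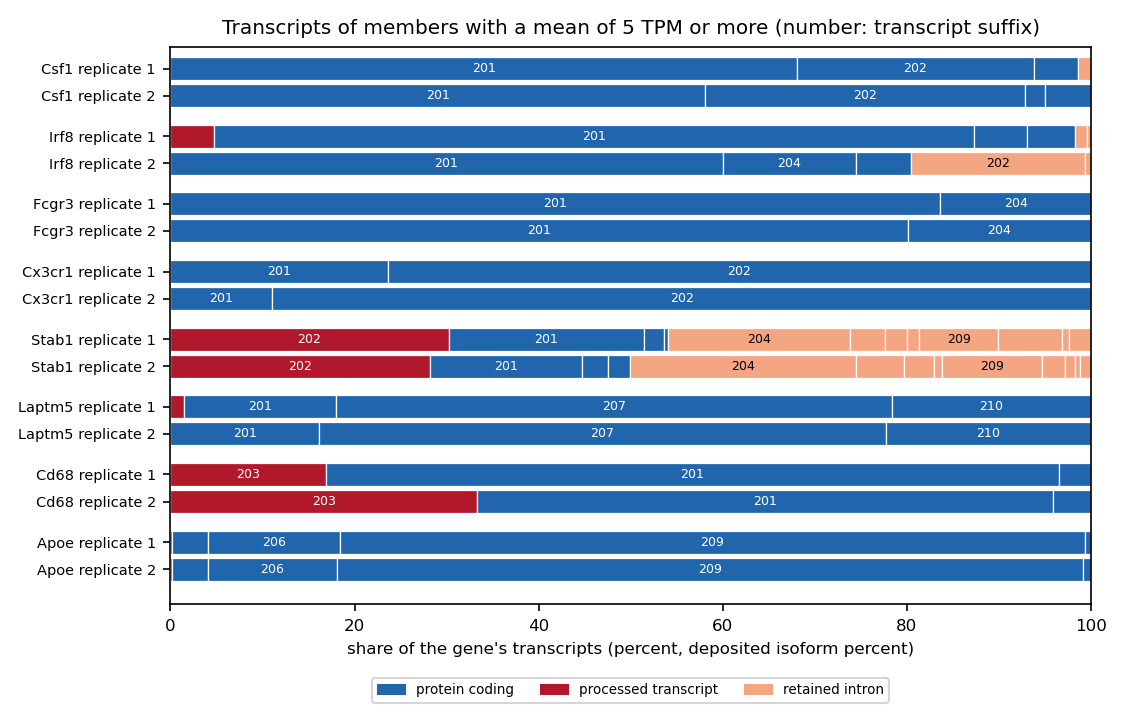
Share of each transcript in its gene (percent, x axis) in replicate 1 and replicate 2, for the 8 members with a mean of 5 TPM or more and at least 2 transcripts of 10% or more. Numbers are transcript suffixes and colours are transcript types: Stab1 is the gene with the smallest coding part, and the coding transcript 207 of Laptm5 holds 60.4% and 61.5% in the libraries.

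The Ms4a genes lie in a row on chromosome 19, and Ms4a7 was not the highest of them. Of 19 protein-coding Ms4a genes, 3 reached 1 TPM in both libraries, against 58.1% of all protein-coding genes. These were Ms4a6b at 2.53 TPM in replicate 1 and 1.92 TPM in replicate 2, Ms4a6c at 1.88 and 1.65 TPM and Ms4a6d at 2.12 and 1.15 TPM. Ms4a4a was at 3.10 and 0.77 TPM. The B cell gene Ms4a1 of the same row had 0.03 TPM in replicate 1 and 0.01 TPM in replicate 2, and the mast cell gene Ms4a2 had no counts.

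General leukocyte and lysosome genes covered a wide range. Laptm5, a lysosomal membrane gene of blood cells, was at 19.1 TPM in replicate 1 and 14.0 TPM in replicate 2, divided among 3 coding transcripts in similar shares in both. Lyz2, lysozyme of macrophages, was at 13.2 and 9.57 TPM. Ptprc (CD45), the classic surface gene of blood cells, was low at 1.12 and 1.29 TPM. Cd68, a lysosomal membrane gene, was at 6.28 and 6.01 TPM, and its processed transcript Cd68-203 held 16.9% and 33.4%. Ctss, a lysosomal protease, was at 5.78 and 2.75 TPM. Adgre1, which encodes F4/80, was at 2.81 and 1.13 TPM. Aif1, which encodes Iba1, was at 4.92 and 3.40 TPM, of which coding transcripts made up 2.83 and 0.98 TPM. The deposited bounds of its coding transcript Aif1-203 ran from 2.2e-06 to 2.48 TPM in replicate 1 and from 1.8e-06 to 0.9455 TPM in replicate 2. The coding part of Aif1 is therefore poorly fixed, and the gene lies outside the rule for isoforms. Cd14, the endotoxin co-receptor, was below detection at 0.65 and 0.79 TPM.

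Axl, Mertk, their ligand Gas6 and Apoe were all detected, as were 58.1% of all protein-coding genes. Apoe, a lipid carrier, was the highest member at 168 TPM in replicate 1 and 141 TPM in replicate 2, above 95% of protein-coding genes and 22.1 ± 3.6 times above Csf1r. It was carried mainly by 1 coding transcript, Apoe-209, at 80.9% and 81.0%. Axl, a receptor for dying cells, was at 18.2 and 13.5 TPM and its relative Mertk at 3.17 and 2.63 TPM, a ratio of 5.44 ± 0.41. Their bridging ligand Gas6 was at 12.2 and 7.47 TPM. The third receptor of the family, Tyro3, was at 23.3 and 23.7 TPM and the second ligand, Pros1, at 16.5 and 16.3 TPM.

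The members were on the whole higher in replicate 1. Of 31 members that averaged 1 TPM or more, 26 had the higher scaled count in replicate 1, against 49.0% of 14768 genes past the same level. The median log2 ratio of replicate 1 over replicate 2 was 0.38 over these members and -0.006 over all genes. The 5 that were lower in replicate 1 were Irf8, Spi1, Tmem119, Cx3cl1 and Ptprc. By an exact binomial interval of 95%, which covers counting error only, the ratio lay above 1 for 21 members and below 1 for 3 (Irf8, Tmem119 and Cx3cl1), while 28.0% of all genes lay above and 28.9% below. The deposited credible intervals of the libraries did not overlap for 18 of the 31, against 35.9% of all genes. P2ry12 and Lyve1 are among the 26, the 21 and the 18. Both passed the filter of 1 TPM on the mean through replicate 1, where they were high, so these counts were partly set by the filter. With 1 library on either side these ratios have no replicate check, and no p-value was computed.

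**Figure D4:**
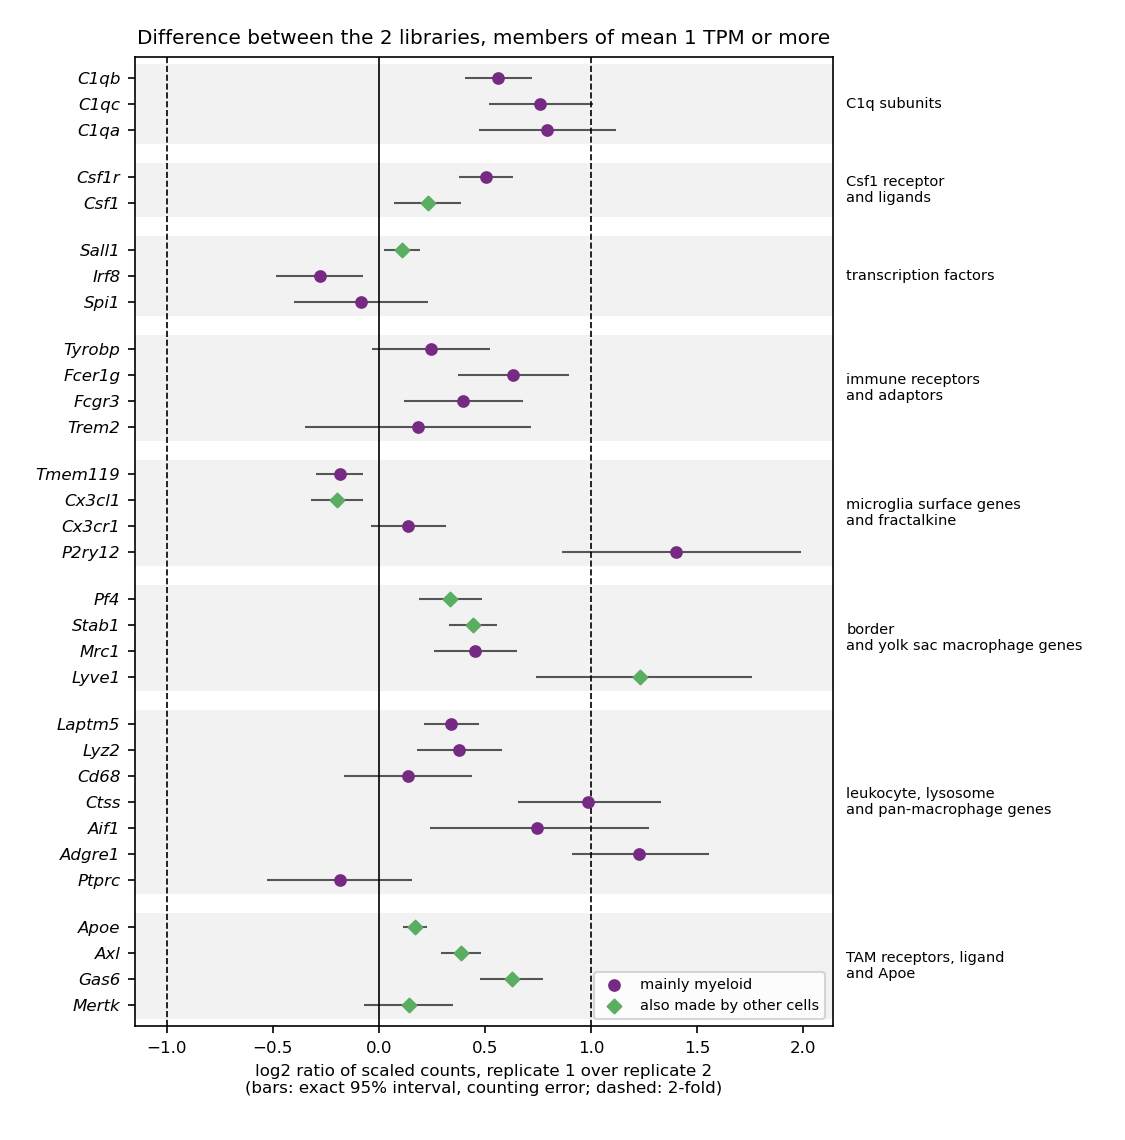
Log2 ratio of scaled counts, replicate 1 over replicate 2, for the 31 members that averaged 1 TPM or more, by role, with exact 95% intervals of counting error. Points right of 0 are higher in replicate 1: 26 members lie there, and P2ry12, Lyve1 and Adgre1 lie past the dashed 2-fold line.

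Past 2-fold were 3 of the 31 members, all higher in replicate 1, against 3.22% of all genes in either direction and 2.04% with replicate 1 higher. P2ry12 had a ratio of 2.64, Lyve1 of 2.35 (interval 1.67 to 3.38) and Adgre1 of 2.34 (1.88 to 2.94). P2ry12 and Lyve1 passed the filter of 1 TPM on the mean through replicate 1, where they were high, so their place in this count and their direction were partly set by the filter. Adgre1 is the member past 2-fold that reached 1 TPM in both libraries. Ctss lay just inside at 1.98 (1.58 to 2.51). Below the level filter, Timd4 and Ms4a7 had ratios of 4.11 (1.01 to 46.3) and 2.04 (1.03 to 4.43), from few counts. None of the members that averaged 5 TPM or more was 2-fold apart.

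Lists of markers of other cell types were set beside the members. Whether the genes of a list came from that cell type was not tested. Among all 14768 genes that averaged 1 TPM or more, 49.0% were higher in replicate 1, and the median log2 ratio was -0.006. All 10 red cell genes were lower in replicate 1, with a median log2 ratio of -0.24 and summed levels of 16716 TPM in replicate 1 and 18617 TPM in replicate 2. Of 12 endothelial genes, 6 were higher and 6 lower in replicate 1 (median -0.02, sums of 205.2 and 222.3 TPM). Of 10 megakaryocyte and platelet genes that averaged 1 TPM or more, Pf4 included, 4 were higher and 6 lower (median -0.14). Among 8 lymphatic endothelium genes 6 passed that level, 5 of them higher in replicate 1 (median 0.50). Stab1 and Lyve1, members themselves, are among the 6, and Lyve1 passed the level through replicate 1. Pdpn stood highest in this list at 91.4 TPM in replicate 1 and 67.6 TPM in replicate 2. Below detection were Ccl21a at 0.18 and 0.23 TPM and Stab2 at 0.16 and 0.11 TPM. Blood stem and progenitor genes had a median of 0.32, with 6 of 9 higher. Gata2 and Tal1 had the highest ratios of these 9, at 1.96 and 1.86. Lmo2, Cd34 and Gfi1b were lower in replicate 1, with ratios of 0.96, 0.85 and 0.76. The mainly myeloid members had a median of 0.40, with 17 of 21 higher, and the members also made by other cells a median of 0.28, with 9 of 10 higher. P2ry12 of the first group and Lyve1 of the second are among those higher and passed the filter through replicate 1. The part of these other cells in the members' ratios was not tested.

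**Figure D5:**
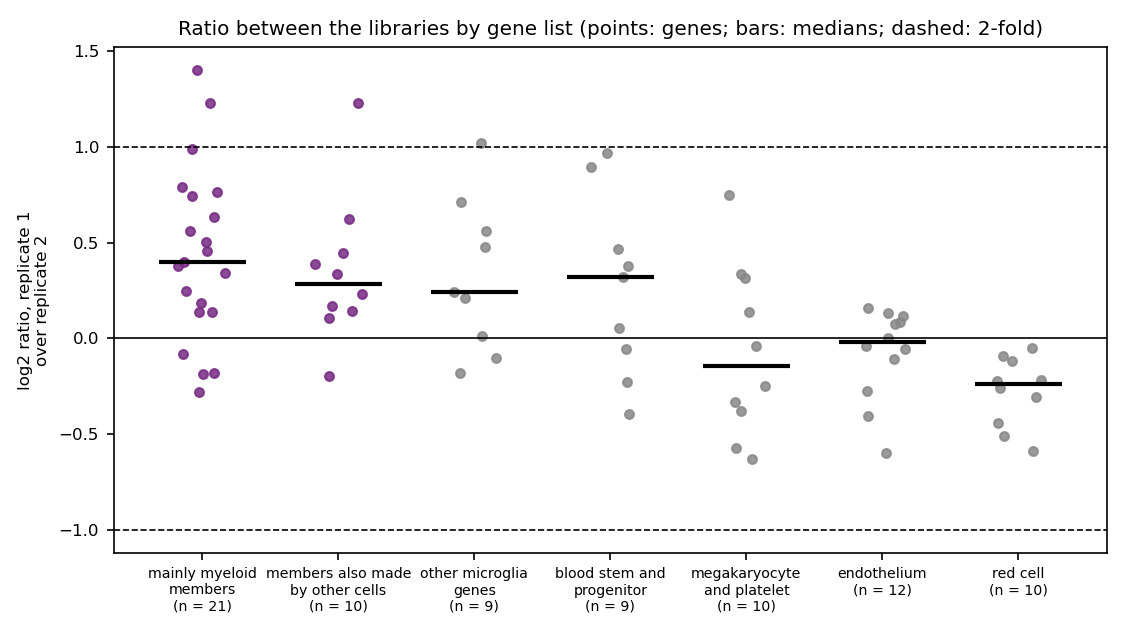
Log2 ratio of scaled counts, replicate 1 over replicate 2, for genes that averaged 1 TPM or more in each list, where points are genes, thick bars list medians and dashed lines 2-fold. The medians of both member groups, 0.40 and 0.28, lie above 0, and all 10 red cell genes lie below 0.

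Few markers of other leukocytes were detected, against 58.1% of all protein-coding genes, and some of these markers were at levels like those of the macrophage genes. None of 12 lymphocyte and natural killer cell genes and none of 6 mast cell and basophil genes was detected, and their summed levels in replicate 1 were 1.24 and 0.2 TPM. In replicate 2 the sums were 1.27 and 0 TPM. Of 10 neutrophil and granule genes 2 were detected, Prtn3 at 11.4 TPM in replicate 1 and 6.82 TPM in replicate 2 and Mpo at 2.26 and 2.12 TPM, while Ly6g and Ctsg had no counts. S100a8, a gene of mature granulocytes, was at 2.56 TPM in replicate 1 and at 0 in replicate 2, from 22 and 0 counts. Of 12 monocyte and dendritic cell genes 3 were detected: Zbtb46 at 16.1 TPM in replicate 1 and 14.3 TPM in replicate 2, H2-Ab1 at 6.83 and 9.05 TPM and Nr4a1 at 2.24 and 2.27 TPM. H2-Aa, the lowest, had no counts. Cd74, at 0.21 TPM in both libraries, and H2-Eb1, at 0.82 TPM in replicate 1 and 0.96 TPM in replicate 2, were below detection. Whether Zbtb46, H2-Ab1 and Nr4a1 came from monocytes or dendritic cells was not tested. The monocyte gene Ly6c2 had 0.08 TPM in replicate 1 and 0 in replicate 2, and Ccr2 had 0.23 and 0.04 TPM. For platelets, 9 of 12 genes were detected: Ppbp was at 8.20 and 6.22 TPM and Itga2b at 5.86 and 4.92 TPM beside Pf4. Genes of these other lists beyond the 2 highest and the lowest were picked after their values were seen.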

How the data were processed

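Both libraries have a gene and a transcript table on mm10 with GENCODE M4, made from transcriptome alignments per the file headers. Aligner, quantifier and strand: not given in the sources used here. The deposited expected counts are estimates, here rounded. The deposited TPM is corrected for effective length and scaled over all rows, spike-ins and tRNAs included. The deposited FPKM served as an alternative. The deposited credible bounds are a signal in TPM units, of unstated level. Isoform percent, as deposited, splits a gene's TPM among its transcripts. Per the labels' protocols, RNA above 200 nt was used, and a SMARTer Ultra Low kit manual is among the links.

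Symbols and positions came from GENCODE M21 (GRCm38), which matched 42462 of 43346 identifiers. The 26345 other rows, 97 of them spike-ins, stayed out. Counts were scaled with edgeR 4.0.16 (TMM; replicate 1, 1.01; replicate 2, 0.988), with 0.5 added in ratios. Ratio code was tested on simulated data. Intervals and floors (3 counts) cover counting error only. The rule named all members, isoforms of those of mean 5 TPM or more with at least 2 transcripts at 10% or more, the neighbours in the C1q and Ms4a clusters, and the 2 highest and the lowest gene of each other list; the text says where it goes beyond, and 1 such gene is not reported here. Members and lists were chosen with earlier results of these data known. Alternatives were other TPM minimums, posterior mean TPM, FPKM, coding transcripts, DESeq2 1.42.0 size factors and other filters. Computation used Python 3.11.15, scipy 1.17.1 and R 4.3.3.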

Additional observations from a re-analysis of the deposited data

How the results depend on the processing

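Of the 37 genes, 29 were detected, and 26 to 33 at minimums of 0.5 and 2 TPM, by FPKM, by posterior mean TPM or by coding transcripts alone. At 5 TPM 19 were. With a single replicate the count was 29 to 31. The median of the members, 5.96 TPM, was 3.755 as FPKM, 7.18 over detected members and 5 to 6.28 with a single replicate. The sum of the mainly myeloid genes, 167.6 TPM, was 105.9 as FPKM, a unit with another scale, and 142.6 to 192.6 TPM with a single replicate. It was 147 TPM without Tmem119, an alternative chosen after seeing the data, as was the use of coding transcripts alone. The count of members past 2-fold, 3 in the main analysis and with DESeq2 size factors, was 1 for deposited TPM plus 0.5, 5 with no filter on low values, 0 at a mean of at least 5 TPM and 9 at 1.5-fold. The median log2 ratio stayed between 0.34 and 0.43. The upper value came from deposited TPM plus 0.5, for which the median over all genes was itself 0.068. No paired analysis was possible because there is 1 group. With 2 libraries, levels carry an SD of n = 2, and Il34, Timd4 and Ms4a7 rest on 25 counts or fewer in each library.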

Other observations

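Other genes of microglia and macrophages lay at graded levels. In each list of this section the share detected was below the 58.1% of all protein-coding genes. It was 50% for further microglia genes, 48.4% for tissue macrophage genes and 35.7% for activated microglia genes. For complement genes it was 43.75%, for cytokine and receptor genes 56.25% and for transcription factors 55.6%. Of 16 further microglia genes 8 were detected. Sparc, a matrix gene of many cells, was at 372 TPM in replicate 1 and 298 TPM in replicate 2, and P2ry13 was the lowest by mean level at 0.44 and 0.53 TPM. Fcrls, a gene of microglia, was at 4.8 and 2.23 TPM, and Siglech at 0.74 and 0.35 TPM. Of 31 further tissue macrophage genes 15 were detected, led by Lamp1 at 185.3 and 184.8 TPM and Ctsz at 97.7 and 98.2 TPM, both lysosomal genes of most cells. F13a1, a coagulation factor gene of border macrophages, was at 11.2 and 4.74 TPM, and Marco, Vsig4 and Cd209f had no counts. Of 14 activated microglia genes 5 were detected, Fabp5, Cd63, Cd9, Lpl and Spp1, genes that other cells also make. The inflammatory gene Il1b had 0.11 TPM in replicate 1 and 0 in replicate 2, and Tnf had 0.07 and 0.02 TPM.

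Of 16 further complement genes 7 were detected, and they were regulators in the main: Cr1l at 42.5 TPM in replicate 1 and 39.2 TPM in replicate 2, and Serping1, the inhibitor of the C1 proteases, at 30.2 and 23.4 TPM. C3 was at 0.06 and 0.07 TPM, and C4b had no counts. Of 16 matched cytokine and receptor genes 9 were detected, led by Tgfbr1 at 92.5 and 76.4 TPM and Cxcl12 at 61.4 and 50.9 TPM. The granulocyte growth factors Csf2 and Csf3 had no counts, while the receptor chain Csf2ra had 9.52 TPM in replicate 1 and 8.01 TPM in replicate 2, and Csf2rb had 2.09 and 2.65 TPM. Of 18 further myeloid transcription factors 10 were detected, led by the ETS genes Fli1 at 11.7 and 14.9 TPM and Etv6 at 10.9 and 10.7 TPM. Cebpa, a factor of granulocytes and monocytes, was at 0.28 and 0.29 TPM. Several genes in these paragraphs were picked after their values were seen.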
